A study of Mus musculus with 96 samples.

Results

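Expression of 9 citric acid cycle enzyme genes was examined in 96 single mouse preoptic neurons: Cs, Idh3a, Idh3b, Idh3g, Ogdh, Suclg1, Fh1, Mdh1 and Mdh2, which are 9 of the 24054 genes in the count table. The genes were selected on their counts in warm-sensitive and temperature-insensitive cells, where Cs was the lower in the warm-sensitive ones, so that contrast is given here as a description. The neurons came from the hypothalamus of C57BL/6N mice aged 2 to 3 months. Each was recorded by whole-cell patch clamp, drawn into a glass pipette and turned into a Smart-seq2 library with Nextera XT tagging, a protocol that amplifies full-length cDNA of 1 cell. The labels sort the cells by their response to temperature into 24 insensitive, 21 warm-sensitive and 5 cold-sensitive cells, and, among cells labelled silent, 18 insensitive and 10 sensitive ones. A further 18 cells had no known class and were compared with none. The labels do not give the animal, slice or day of a cell, so each class counts as 1 sample and no test between classes was run. All mice were of the same strain and no treatment or allele separated the classes.

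The citric acid cycle runs in the mitochondrial matrix, where it burns acetyl groups to carbon dioxide and hands electrons to the respiratory chain. Citrate synthase, encoded by Cs, joins acetyl-CoA to oxaloacetate in the entry step, and the NAD-dependent isocitrate dehydrogenase (Idh3a, Idh3b, Idh3g) and the 2-oxoglutarate dehydrogenase complex (Ogdh) are regulated, NADH-yielding steps. Succinate-CoA ligase (Suclg1), fumarase (Fh1) and mitochondrial malate dehydrogenase (Mdh2) complete the turn, while cytosolic malate dehydrogenase (Mdh1) belongs to the malate-aspartate shuttle, by which neurons bring glycolytic reducing power into mitochondria.

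Levels are in CPM, a gene's counts per 1000000 counts of the cell, and a gene counted as found in a cell at 10 CPM or more. Total counts ran from 465167 to 3660726 per cell. Rn45s, the ribosomal RNA precursor, took a median of 45.4% of the counts of insensitive, 67.7% of warm-sensitive, 56.1% of cold-sensitive, 55.0% of silent insensitive and 61.8% of silent sensitive cells. Counts outside Rn45s had medians of 761928, 314892, 734507, 362457 and 415420 for these classes in turn, so the libraries of insensitive and cold-sensitive cells were the deepest. The 8 neuronal markers summed to 10 CPM or more in every cell of every class, with medians of 3401, 1249, 3163, 2259 and 1830 CPM in the same order. Markers of other cells were also present: the 9 microglial markers had class medians from 440 to 2477 CPM and the 7 oligodendrocyte markers from 433 to 1404 CPM, the 6 astrocyte markers had class medians from 1.64 to 86.9 CPM, and the 5 endothelial markers had a median of 0 CPM in every class, with Cldn5 and Ly6c1 at 0 counts in all of them. The part of depth and of these other transcripts in the values that follow was not tested except where a value is given.

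Among insensitive cells, levels per kilobase of exon followed the order Mdh1, Mdh2, Idh3b, Idh3g, Suclg1, Ogdh, Fh1, Idh3a and Cs, when counts were summed over the class. Mdh1 stood at 483 CPM per kb, Mdh2 at 160 and Idh3b at 113, all above the remaining 6 genes. Idh3g had 66.0 CPM per kb, and the lowest 5 genes ran from 40.7 for Suclg1 to 25.9 for Cs. By the median cell these 5 had another order, from 25.7 CPM per kb for Suclg1 and 23.4 for Cs to 15.2 for Idh3a, 13.2 for Ogdh and 0.309 for Fh1. The spread between cells of 1 class was far wider than the gaps between these neighbours: single insensitive cells ranged from 0 to 465 CPM for Cs and from 2.17 to 3476 CPM for Mdh1. Most cells held a gene either well above 10 CPM or near 0, as the plot of single cells shows.

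**Figure D1:**
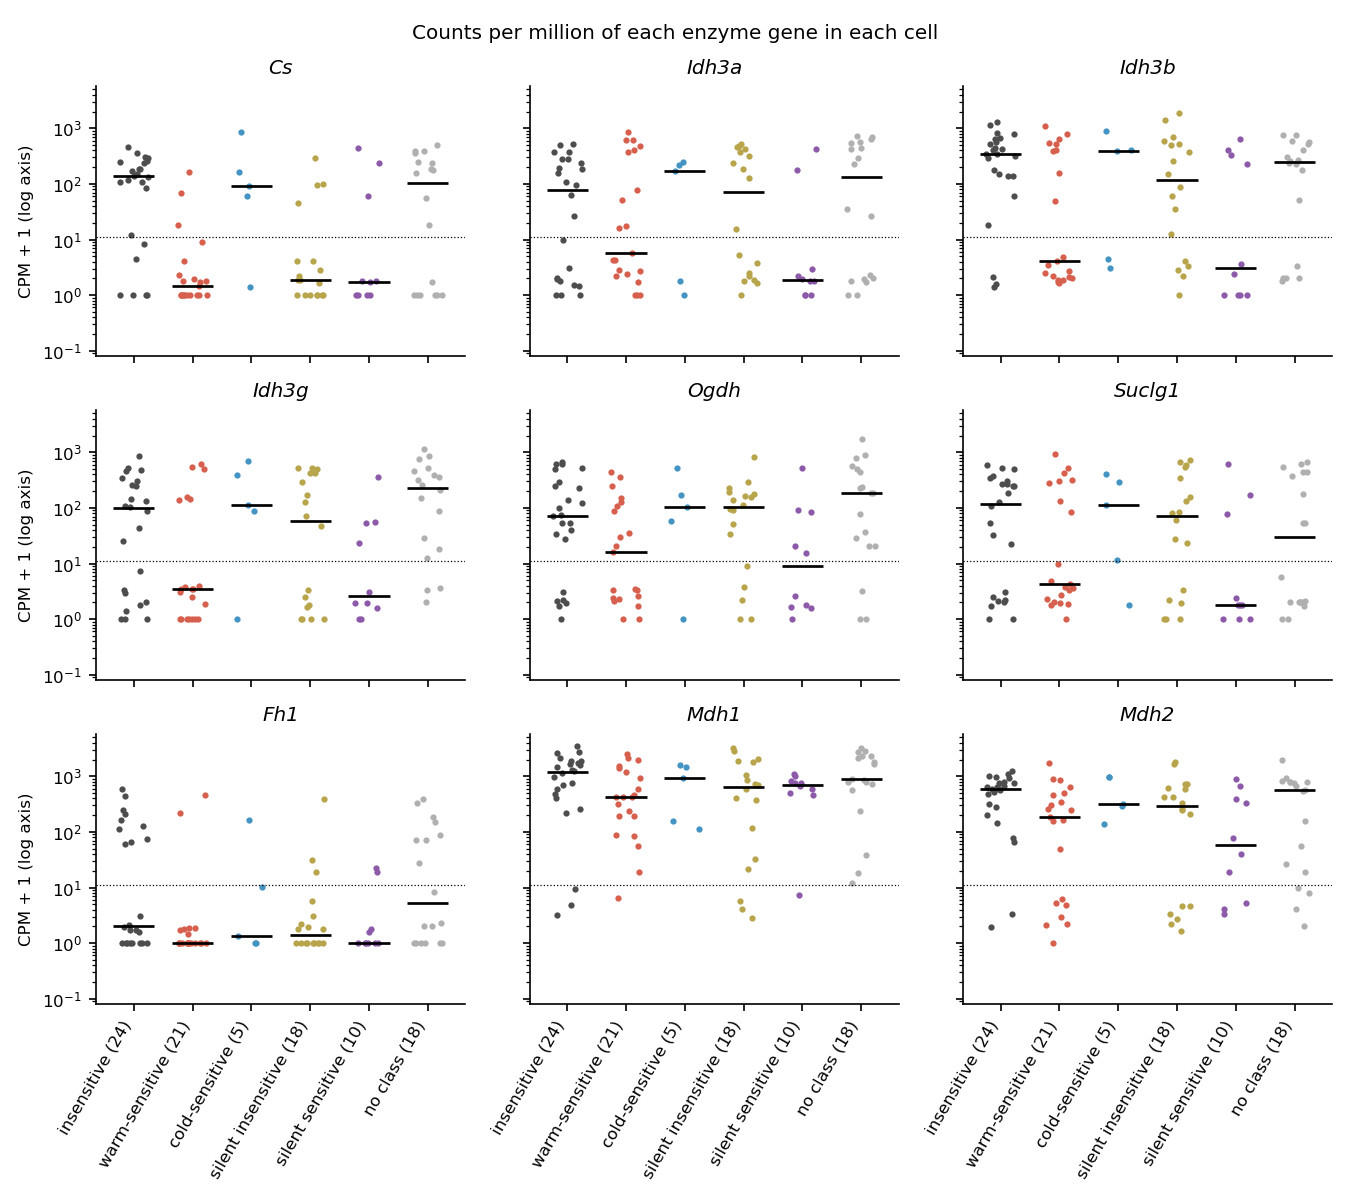
CPM plus 1 (log axis) of each of the 9 genes in each cell, by temperature class with the number of cells in brackets; the bar is the class median and the dotted line marks the detection limit of 10 CPM. Cs lies above the limit in 18 of 24 insensitive cells and 3 of 21 warm-sensitive cells, whereas Mdh1 lies above it in 21 and 20.

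Cs is shown with its promoter because its share of cells differed most between classes, and Fh1 because it was the other gene that lay at least 1 log2 unit below the median gene in silent insensitive against insensitive cells. Cs spans chromosome 10, 128337734 to 128362479, on the plus strand of mm10, and Fh1 spans chromosome 1, 175600374 to 175625635, on the minus strand. On the same build Idh3a spans chromosome 9, 54586334 to 54604661, Idh3b chromosome 2, 130279309 to 130284547, Idh3g chromosome X, 73778963 to 73786897, and Ogdh chromosome 11, 6291633 to 6356642. Suclg1 spans chromosome 6, 73248382 to 73276911, Mdh1 chromosome 11, 21556787 to 21572367, and Mdh2 chromosome 5, 135778480 to 135790398. Counts cover whole genes and no single exon or UTR is told apart. The windows below are the 250 bases upstream of the RefSeq gene start in GRCm38.p6, chr10:128337477-128337726 (plus strand) and chr1:175625636-175625885 (minus strand), and no GENCODE exon overlaps either. Capitals mark the CCAAT box, spelled by its name, and the GC box, spelled GGGCGG, each searched on both strands, as were the motifs named after them. Both boxes are common in promoters of genes active in most tissues.
Cs: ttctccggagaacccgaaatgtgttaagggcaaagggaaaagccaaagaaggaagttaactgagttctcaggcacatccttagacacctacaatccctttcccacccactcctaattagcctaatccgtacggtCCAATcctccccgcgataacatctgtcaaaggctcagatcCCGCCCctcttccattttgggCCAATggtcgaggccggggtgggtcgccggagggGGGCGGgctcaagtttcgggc
Fh1: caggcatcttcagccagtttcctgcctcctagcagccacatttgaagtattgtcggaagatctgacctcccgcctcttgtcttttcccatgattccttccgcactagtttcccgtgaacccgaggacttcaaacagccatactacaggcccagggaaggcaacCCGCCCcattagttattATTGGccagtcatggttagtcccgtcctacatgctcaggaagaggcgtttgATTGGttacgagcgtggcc
RefSeq promoters were matched for 8 of the 9 genes, all but Idh3a. The CCAAT box was in 5 of the 8 windows, those of Cs, Idh3b, Ogdh, Fh1 and Mdh1, against 34.5% of the 27025 gene promoters in the table. The GC box was in 4, those of Cs, Fh1, Mdh1 and Mdh2, against 32.9%. The cyclic AMP response element TGACGTCA, which reads the same on both strands, was in 2 windows, Ogdh and Mdh2, against 1.62%, and AAGGTCA, bound by oestrogen-related receptors, was in 0 of 8 against 4.05%. These are matches of letters in a short window only.

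Cs was found in 18 of 24 insensitive cells (75%, exact Clopper-Pearson 95% interval 53.3 to 90.2%) and in 3 of 21 warm-sensitive cells (14.3%, 3.05 to 36.3%). All such intervals cover counting error only and treat cells as independent draws. The lowest, median and highest insensitive cells had 0, 135 and 465 CPM of Cs, and the warm-sensitive cells 0, 0.465 and 162 CPM. The 2 classes thus overlapped in range, since 4 insensitive cells had no count of Cs, but most insensitive cells lay above nearly all warm-sensitive ones. The 5 cold-sensitive cells had 0.409, 60.7, 92.1, 160 and 868 CPM, so Cs was found in 4 of the 5 cells, 1 of them above every insensitive cell. The low level was shared by both silent classes. Cs was found in 4 of 18 silent insensitive cells (22.2%, 6.41 to 47.6%) with a median of 0.861 CPM and a highest value of 295 CPM. It was found in 3 of 10 silent sensitive cells (30.0%, 6.67 to 65.2%) with a median of 0.751 and a highest value of 444 CPM. Temperature-insensitive cells thus held Cs often where not labelled silent and seldom where silent. Of the 18 cells without a class, 11 held Cs, with a range of 0 to 501 CPM and a median of 105.

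The 3 warm-sensitive cells with Cs had 17.4, 67.3 and 162 CPM. They all carried the letter G in their cell titles, as did 4 of the 21 warm-sensitive cells, while 0 of the 17 warm-sensitive cells with other letters held Cs. The labels do not say what the letter stands for. Its link to Cs was seen after the values were known. Differences taken within letters are given below. Reads of near-identical genes were few: the citrate synthase copy Csl had 1 count in 1 cell, and the Mdh1 relative Mdh1b had 39 counts in 4 cells.

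Depth moved with the shares. When counts outside Rn45s were thinned to 200000 per cell and shallower cells were left out, with 2 counts as the limit, Cs was found in 19 of 24 insensitive (79.2%) and 5 of 20 warm-sensitive cells (25%), in 4 of 14 silent insensitive cells (28.6%) and again in 3 of 10 silent sensitive cells. In cells with 300000 to 800000 counts outside Rn45s, the numbers were 9 of 13 insensitive, 2 of 10 warm-sensitive, 1 of 8 silent insensitive and 3 of 8 silent sensitive cells. This band narrowed the depths but did not match them: the median was 557461 counts in its insensitive, 346528 in its warm-sensitive, 550618 in its silent insensitive and 415420 in its silent sensitive cells.

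**Figure D2:**
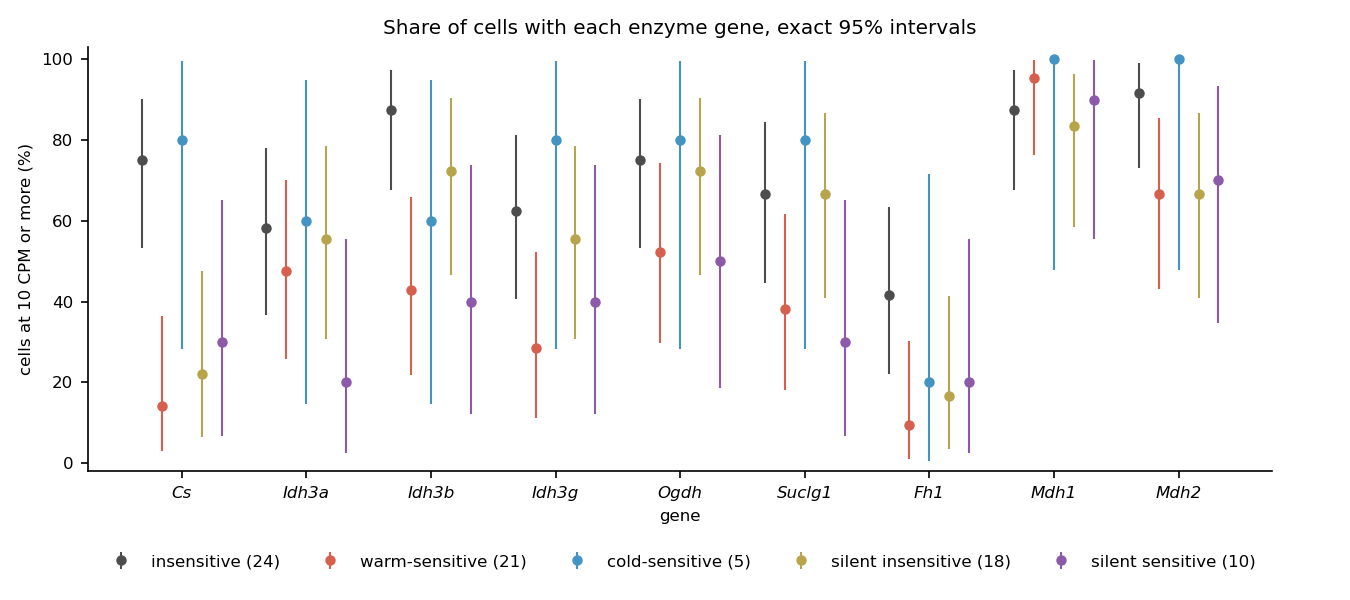
Percent of cells of each class with each gene at 10 CPM or more; points are shares and bars exact Clopper-Pearson 95% intervals, with the number of cells per class in brackets. The interval of Cs runs from 53.3 to 90.2% in insensitive and from 3.05 to 36.3% in warm-sensitive cells, whereas the intervals of Mdh1 overlap in all classes.

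The 3 subunits of NAD-dependent isocitrate dehydrogenase did not behave alike. Idh3a, the catalytic subunit, was found in 14 of 24 insensitive cells (58.3%) and 10 of 21 warm-sensitive cells (47.6%), with medians of 77.2 and 4.63 CPM and highest cells at 514 and 851 CPM. Idh3b, a regulatory subunit, was found in 21 of 24 insensitive cells (87.5%) and 9 of 21 warm-sensitive cells (42.9%), with medians of 349 and 3.15 CPM. Idh3g, the other regulatory subunit, was found in 15 (62.5%) and 6 (28.6%) of them, with medians of 96.9 and 2.43 CPM. The ranges of all 3 subunits overlapped between these classes, from near 0 to over 500 CPM in both. Idh3b overlaps Nop56 on the opposite strand, a gene with 8419 counts over all cells, and the sources used here do not say whether the counting used strand.

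The enzyme needs its subunits together, and cells with all 3 at 10 CPM or more were counted after the values were known. They were 11 of 24 insensitive, 1 of 21 warm-sensitive, 3 of 5 cold-sensitive, 7 of 18 silent insensitive and 0 of 10 silent sensitive cells. Of the 10 silent sensitive cells, 8 held exactly 1 of the 3 subunits. Idh3a was found in 2 of these 10 cells (20%, 2.52 to 55.6%) against 10 of 18 silent insensitive cells (55.6%, 30.8 to 78.5%), with medians of 0.904 and 71.5 CPM. Thinned to 200000 counts, Idh3a was found in 3 of 10 and 9 of 14 of them.

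Ogdh, the first subunit of the 2-oxoglutarate dehydrogenase complex, was found in 18 of 24 insensitive cells (75%), 11 of 21 warm-sensitive (52.4%), 4 of 5 cold-sensitive, 13 of 18 silent insensitive (72.2%) and 5 of 10 silent sensitive cells. Its class medians were 71.8, 15.2, 104, 102 and 7.94 CPM in that order. Warm-sensitive and silent sensitive cells thus had the lowest medians, although single cells reached 447 CPM in the warm-sensitive and 532 CPM in the silent sensitive class. Suclg1, which encodes the subunit of succinate-CoA ligase shared by its ATP- and GTP-forming versions, was found in 66.7% of insensitive, 38.1% of warm-sensitive, 66.7% of silent insensitive and 30.0% of silent sensitive cells, and in 4 of 5 cold-sensitive cells. Its class medians of 119, 3.24, 69.8 and 0.807 CPM for the first 4 of these were also lowest in silent sensitive and warm-sensitive cells.

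Fh1 was the gene found in the fewest insensitive cells, 10 of 24 (41.7%). It was found in 2 of 21 warm-sensitive (9.52%), 1 of 5 cold-sensitive, 3 of 18 silent insensitive (16.7%) and 2 of 10 silent sensitive cells (20%). The highest cell of each class stood at 593, 455, 162, 390 and 21.2 CPM. A single cell held 92.1% of the Fh1 counts of the silent insensitive class and 91.3% of those of the cold-sensitive class, so summed levels of Fh1 rest on 1 cell there.

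The malate dehydrogenases were found in the most cells. Mdh2 was found in 22 of 24 insensitive (91.7%), 14 of 21 warm-sensitive (66.7%), 5 of 5 cold-sensitive, 12 of 18 silent insensitive (66.7%) and 7 of 10 silent sensitive cells (70.0%). Its medians were 599, 185, 320, 295 and 57.8 CPM, highest in the insensitive cells. Mdh1 was found in 21 of 24 insensitive (87.5%), 20 of 21 warm-sensitive (95.2%), 5 of 5 cold-sensitive, 15 of 18 silent insensitive (83.3%) and 9 of 10 silent sensitive cells (90.0%), with medians of 1199, 430, 935, 646 and 706 CPM. The cytosolic enzyme was thus found in nearly the same share of cells in every class, while the level per cell had its highest median in insensitive cells. Of the 10 silent sensitive cells, 9 had Mdh1 between 461 and 1102 CPM, and 1 at 6.36 CPM.

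Differences between classes were computed on log2(CPM + 1), averaged over the cells of a class; low genes appear with too small a change on this scale. They are set beside those of all eligible genes, which had 10 CPM or more in 25% or more of 1 class, with no fewer than 3 such cells. The median eligible gene was itself 1.36 lower in warm-sensitive than in insensitive cells, so each difference is also read relative to that median gene. The median depends on this filter: among all genes with a count it was -0.34, and 24% of them were at least 1 lower. Of the 9 enzyme genes, 7 were at least 1 lower in warm-sensitive cells, and so were 67.6% of the 4601 eligible genes. Measured from the median gene, 2 of 9 were at least 1 below it, Cs and Idh3b, against 13% of eligible genes. This contrast chose the genes and nothing is read from these counts.

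Cs had a mean log2(CPM + 1) of 1.33 ± 2.13 (SD over 21 cells) in warm-sensitive and 5.71 ± 3.09 (SD over 24 cells) in insensitive cells. The difference of -4.38 was the 6th lowest of the 4601 genes. Cs was selected on this contrast. Cs and Fh1, found in 14.3% and 9.52% of warm-sensitive cells, were also eligible only through the insensitive cells, so nothing is read from this rank. The difference of Cs was -4.50 within letters and -4.63 on counts outside Rn45s. With counts summed over each class it was -3.70, and 7.15% of eligible genes lay at or below Cs, against 0.13% in the main setting. Such sums rest on few cells, and 64.2% of the Cs counts of the warm-sensitive class came from 1 cell. The genes next in size were Idh3b at -2.98, Fh1 at -2.31, Idh3g at -2.13 and Mdh2 at -2.13, followed by Ogdh at -1.72. Suclg1 stood at -1.27, close to the median gene, and at 0.40 under DESeq2 size factors. Mdh1 stood at -0.78 and Idh3a at -0.61. Both lay above the median gene, and of 11 alternative settings Mdh1 had the other sign under 4 and Idh3a under 5.

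**Figure D3:**
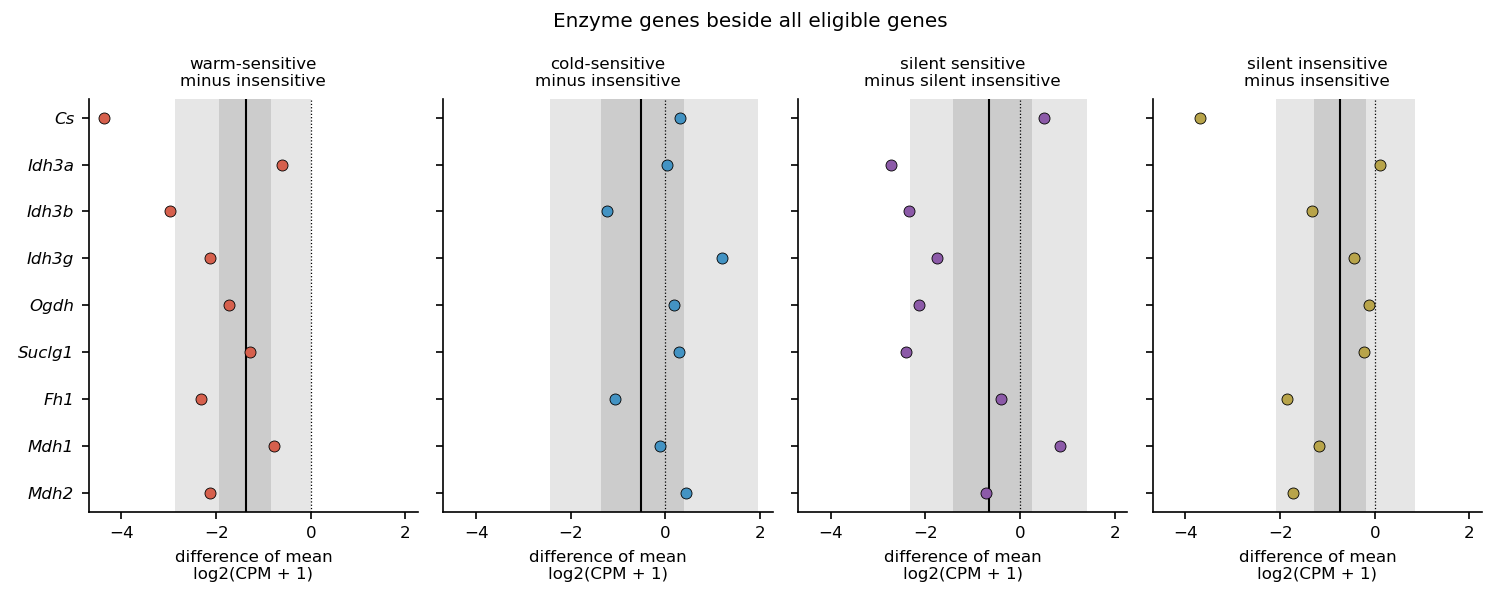
Difference of mean log2(CPM + 1) of each gene in the 4 comparisons; the black line is the median eligible gene, the dark band holds the middle 50% and the light band the middle 90% of eligible genes, and the dotted line is 0. Cs lies left of the light band in warm-sensitive minus insensitive and in silent insensitive minus insensitive cells, at -4.38 and -3.70, and inside the light band, right of the dark one, at 0.50 in silent sensitive minus silent insensitive cells.

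Silent insensitive cells were compared with the same 24 insensitive cells, so this comparison and the one above share their reference. Cs was selected where that reference was the higher. It was also eligible here only through that reference, being found in 22.2% of silent insensitive cells. Its rank is therefore not separate from the selection. Cs stood at -3.70, the 2nd lowest of 4836 eligible genes, beside a median gene of -0.74. It was -4.41 within letters and -3.83 on counts outside Rn45s. Of the 9 genes, 5 were at least 1 lower against 37.6% of eligible genes: Cs, Fh1 at -1.86, Mdh2 at -1.72, Idh3b at -1.32 and Mdh1 at -1.18. At least 1 below the median gene were 2 of 9, Cs and Fh1, against 11.5%. Fh1, found in 16.7% of silent insensitive cells, was likewise eligible only through the reference, where it was the higher. Nothing is therefore read from this count. Idh3a at 0.11, Ogdh at -0.11, Suclg1 at -0.23 and Idh3g at -0.45 lay above the median gene. In cells of 300000 to 800000 counts outside Rn45s, Mdh1 and Mdh2 stood at 0.24 and 0.17. Cs kept its sign under all 11 alternative settings, with values from -4.69 to -2.26. On summed counts 4.8% of eligible genes lay at or below Cs, against 0.0414% in the main setting.

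Silent sensitive and silent insensitive cells hold none of the cells of the contrast on which the genes were selected. Here Cs did not stand low: its mean log2(CPM + 1) was 2.51 ± 3.56 (SD over 10 cells) in sensitive and 2.01 ± 2.73 (SD over 18 cells) in insensitive cells, a difference of 0.50 beside a median gene of -0.65. It ranged from -0.20 to 0.86 when single cells were left out. The 3 isocitrate dehydrogenase subunits, Ogdh and Suclg1 were lower in the sensitive cells, with Idh3a at -2.73, Suclg1 at -2.42, Idh3b at -2.34, Ogdh at -2.13 and Idh3g at -1.75. These 5 were the only ones of the 8 eligible genes at least 1 lower, against 38.7% of 3459 eligible genes, and all 5 were also at least 1 below the median gene, against 18%. Without cells with over 75% of counts in Rn45s, 3 were at least 1 below the median gene, against 17.7% of eligible genes. With a pseudocount of 10 CPM 2 were, against 4.94%. On summed counts, with a median gene of -0.49, Idh3g at -1.55 was the only one of the 8 eligible genes to pass, against 27%. Fh1, which was not eligible here, also passed at -2.72. On summed counts the share of the 8 eligible genes was thus no higher than that of all eligible genes. Idh3a was the 70th lowest of the 3459 genes. However, Idh3a was eligible only through the silent insensitive cells, where it was the higher, being found in 20% of silent sensitive cells. The filter thus favours a low rank for Idh3a, and its place among the 5 genes has the same limit. Its difference lay between -3.66 and -1.33 over 11 settings and between -3.46 and -2.48 when single cells were left out. Idh3g stood at -0.11 within letters, so its difference was small once cells of the same letter were compared. In cells of 300000 to 800000 counts outside Rn45s it stood at -5.00, so its size depended strongly on the setting.

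Mdh1 at 0.85 lay on the other side, and with Cs it was at least 1 above the median gene, as were 23% of eligible genes. Cs was found in 30% of silent sensitive and 22.2% of silent insensitive cells. It was thus eligible only through the class where it was the higher, and the filter favours its place above the median gene. Mdh1 had the other sign under 3 of 11 settings, with -0.36 on summed counts. Mdh2 stood at -0.73, near the median gene. Fh1, which was not eligible here because too few silent cells held it, stood at -0.41. The genes for isocitrate dehydrogenase, 2-oxoglutarate dehydrogenase and succinate-CoA ligase were thus lower in the silent sensitive cells, with the same sign under all 11 settings, beside a citrate synthase gene that was low in both silent classes. Many other genes were lower too. Of all eligible genes, 56.4% were at least 1 lower without cells over 75% Rn45s, and 62.7% at 300000 to 800000 counts outside Rn45s. The sign alone therefore does not set these genes apart.

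The 5 cold-sensitive cells were compared with the same insensitive cells, and 5 cells give little precision. Of the 9 genes, 2 were at least 1 lower against 35.4% of 4644 eligible genes, Idh3b at -1.23 and Fh1 at -1.06, and 1 was at least 1 higher against 13.9%, Idh3g at 1.19. None lay at least 1 below the median gene of -0.52, against 21.2% of eligible genes. Cs stood at 0.31, with values from -0.63 to 1.69 when single cells were left out and -0.71 within letters, so no direction is read from it. Idh3b was near 0 in 2 of the 5 cells, at 2.05 and 3.47 CPM, and at 390, 406 and 896 CPM in the other 3. In the 2 cold-sensitive cells with 300000 to 800000 counts outside Rn45s, the difference of Idh3b was 2.41 and that of Fh1 1.34.

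The median insensitive cell held 6 of the 9 genes (range 1 to 9), the median warm-sensitive cell 4 (1 to 6), cold-sensitive cell 8 (3 to 9), silent insensitive cell 4.5 (2 to 9) and silent sensitive cell 3.5 (2 to 6). Cells with 7 or more of the 9 were 11 of 24 insensitive (45.8%, 25.6 to 67.2%), 3 of 5 cold-sensitive and 7 of 18 silent insensitive cells (38.9%, 17.3 to 64.3%). They were 0 of 21 warm-sensitive cells, with an upper limit of 16.1%, and 0 of 10 silent sensitive cells, with an upper limit of 30.8%. The limit of 7 was set after the values were seen, and the warm-sensitive and insensitive cells include those that chose the genes. After thinning to 200000 counts outside Rn45s, 12 of 24 insensitive, 2 of 20 warm-sensitive, 3 of 5 cold-sensitive, 8 of 14 silent insensitive and 0 of 10 silent sensitive cells held 7 or more. In cells of 300000 to 800000 counts outside Rn45s they were 5 of 13, 0 of 10, 2 of 2, 5 of 8 and 0 of 8. With 1 count as the limit, 17 of 21 warm-sensitive and 7 of 10 silent sensitive cells held 7 or more, so most of these cells had some reads of most genes.

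**Figure D4:**
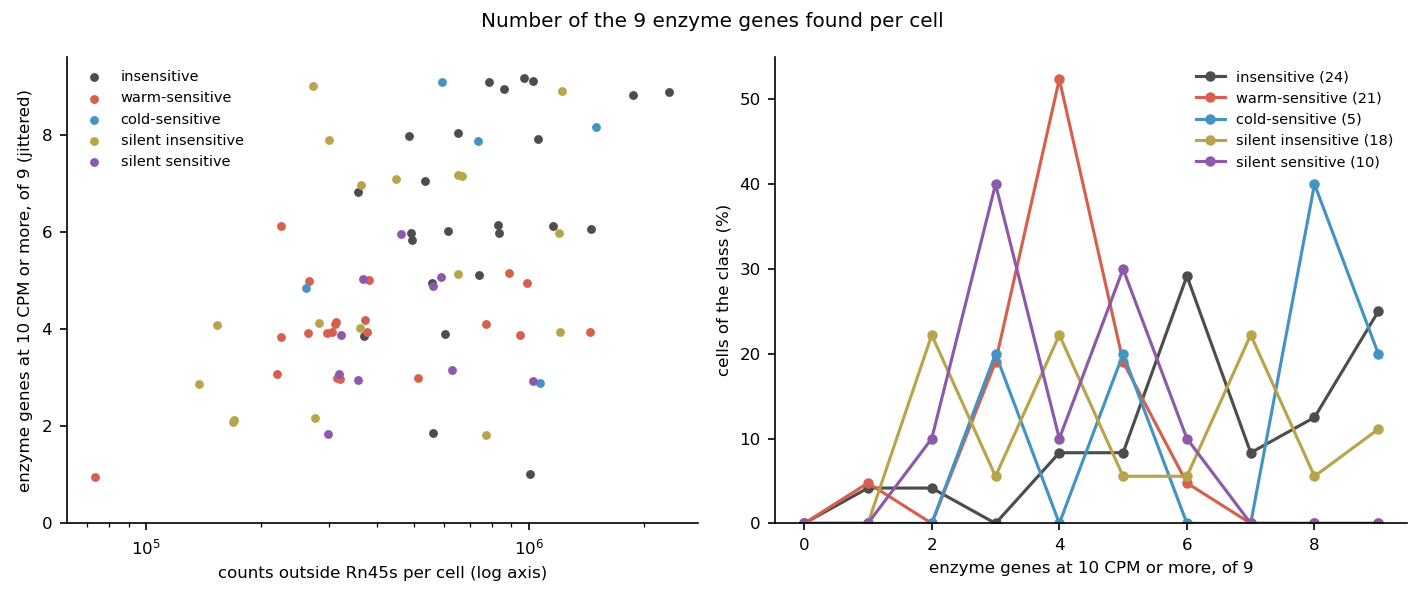
Left, number of the 9 genes at 10 CPM or more in each cell (jittered vertically) against its counts outside Rn45s (log axis), coloured by class. Right, percent of the cells of each class with each number of genes. No warm-sensitive or silent sensitive cell holds more than 6 of the 9, and 11 of 24 insensitive cells hold 7 to 9.

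Genes of other energy pathways were also found in smaller number in warm-sensitive and silent sensitive cells. Of 18 nuclear oxidative phosphorylation genes, a median of 15 were found per insensitive cell, 10 per warm-sensitive, 16 per cold-sensitive, 12.5 per silent insensitive and 11.5 per silent sensitive cell. Of 16 glycolysis genes, the medians were 11, 9, 11, 10.5 and 8.5. Across the 78 classed cells the number of enzyme genes found went with the number of genes with any count (Spearman rho 0.743), which had class medians of 4022, 3244, 4645, 3668.5 and 3230, a relation that shares its libraries and depth. The summed level of the 9 genes had medians of 2612 CPM in insensitive and 1379 CPM in warm-sensitive cells. Taken over counts outside Rn45s, these medians were 6125 and 6107, so the 2 classes hardly differed in summed level on that scale, where Mdh1 and Mdh2 hold most of the sum. The 2 silent classes stood at 5153 and 4199 for insensitive and sensitive cells on the same scale.

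Neighbouring reactions were read from lists of genes in the same pathway. Of the 10 other citric acid cycle enzymes, 9 were eligible in warm-sensitive against insensitive cells. All 9 were at least 1 lower, against 67.6% of all eligible genes, 5 were at least 1 below the median gene, against 13%, and their median difference was -2.68 beside -1.36 for all eligible genes. Among the largest were those of 3 subunits of succinate dehydrogenase, which is also complex II of the respiratory chain: Sdhb at -3.32, Sdhc at -3.28 and Sdha at -3.01. Sdhb was found in 38.1% of warm-sensitive and 83.3% of insensitive cells. Sucla2, the ATP-forming partner of Suclg1, stood at -3.09. The gene of this list that was not eligible, Suclg2, stood at 0.55. Dlst, Dld and Ogdhl were eligible only through the insensitive cells, being found in 4.76, 4.76 and 9.52% of warm-sensitive cells. As this contrast chose the 9 enzyme genes, nothing is read from the counts of any list in it.

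Genes that feed the cycle differed between lists. Of 13 pyruvate entry genes 8 were eligible, and 6 of these were at least 1 lower in warm-sensitive cells, near the 67.6% of all eligible genes, with a median of -1.76. Pdha1, a catalytic subunit of pyruvate dehydrogenase, was found in 14.3% of warm-sensitive and 58.3% of insensitive cells, a difference of -3.17. Of the malate-aspartate shuttle partners, 4 of 5 were eligible and all 4 were at least 1 lower, with a median of -2.62. Its carriers Slc25a12 and Slc25a11 stood at -3.37 and -3.36. The mitochondrial citrate exporter Slc25a1 stood at -3.31, in a list of 8 NADP-linked and cytosolic relatives of which 5 were eligible and 4 at least 1 lower. The glutamate entry genes stood higher than the median gene in 3 of 4 eligible cases. Of these 4, 1 was at least 1 lower and their median was -0.49, with Abat, the GABA transaminase, at -2.74, and Glud1, glutamate dehydrogenase, at -0.20. Of 18 oxidative phosphorylation genes 14 were at least 1 lower with a median of -1.90, and of 15 eligible glycolysis genes 11 with a median of -1.62, both counts again close to the 67.6% of all eligible genes. At least 1 below the median gene were 6 of these 18 and 3 of these 15, against 13%. By this measure pyruvate entry had 3 of 8, the shuttle partners 2 of 4, the NADP-linked and cytosolic relatives 1 of 5 and glutamate entry 1 of 4. Nothing is read from these counts either.

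Between the silent classes the lists parted. Of the other citric acid cycle enzymes 6 were eligible, and 4 were at least 1 lower in silent sensitive cells, against 38.7% of all eligible genes: Sdha at -2.13, Sdhd at -2.12, Sdhb at -1.65 and Sucla2 at -1.20. Only 2 of the 6 were at least 1 below the median gene, against 18%. Sdhc at 0.68 had the other sign. Of the 4 eligible malate-aspartate shuttle partners none was at least 1 lower, and their median was 0.15 beside -0.65 for all eligible genes. Mdh1, the cytosolic dehydrogenase of the same shuttle, had stood at 0.85.

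**Figure D5:**
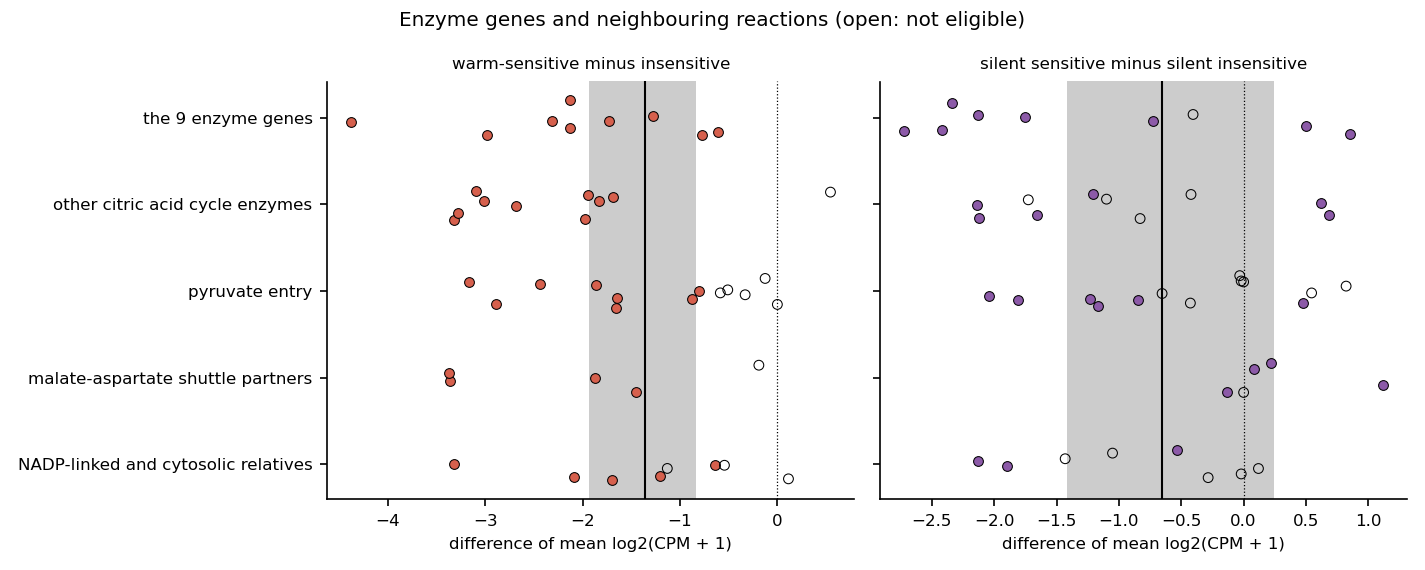
Difference of mean log2(CPM + 1) for the 9 enzyme genes and for genes of neighbouring reactions, in warm-sensitive minus insensitive (left) and silent sensitive minus silent insensitive cells (right); the black line is the median eligible gene, the band holds the middle 50% of eligible genes, the dotted line is 0, and open points are genes that were not eligible. On the right the 4 eligible shuttle partners have a median of 0.15, while Idh3a lies at -2.73.

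Over the 78 classed cells, the genes whose level was most like that of Cs were Celf4 (Spearman rho 0.544), Rp9 (0.543), Uqcrfs1 (0.532), Fto (0.514) and Slc25a11 (0.509), out of 2791 genes at 10 CPM in at least 25% of these cells. Uqcrfs1 encodes the Rieske protein of respiratory complex III and Slc25a11 the 2-oxoglutarate carrier of the malate-aspartate shuttle. Other enzyme genes were less like Cs. The closest was Mdh2 at 0.344, which ranked 169th, and Idh3a at 0.0624 lay below the median gene at 0.164. The mean of the 9 genes was most like Atp5b (0.698), Gapdh (0.689), Aldoa (0.676), Ywhah (0.671) and Hsp90ab1 (0.651), where the median gene had 0.305. Atp5b encodes a subunit of ATP synthase, and Gapdh and Aldoa are glycolytic enzymes. The 36 pairs of enzyme genes had rho from -0.012 to 0.556 with a median of 0.253, and within the 24 insensitive cells from -0.147 to 0.682, the highest for Fh1 with Mdh2. The points share class, library and depth, so these values are descriptions.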

How the data were processed

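RNA of 96 patch-clamped mouse preoptic neurons was, per the labels' protocols, amplified with Smart-seq2 and sequenced. Counts, in whole numbers, were deposited by the authors beside a table of normalized signal, in which each cell's values equal its counts times 1 constant. Per the submitters' processing notes FastQC, STAR, edgeR and the build mm10 were used; the sources used here do not give versions, the counting step, the annotation or the use of strand.

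Classes follow the labels; 18 cells of unknown class entered no comparison. With no animal named, a class is 1 sample, so no test was run and no p-value is given. Each cell was scaled to 1000000 counts, Rn45s included. A gene was found at 10 CPM or more. For shares, exact Clopper-Pearson 95% intervals are given, which cover counting error only, since reads carry no molecular identifiers. Differences are of mean log2(CPM + 1); a gene was eligible at 10 CPM or more in 25% of a class, and no fewer than 3 cells. A limit of 1 log2 unit was used in counts of genes. Levels per kilobase used exon lengths of GENCODE M21. The highest correlation of log values between any 2 cells was 0.646, so no pair looked like 1 library. The measures were tested on simulated data.

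Members and lists were chosen with earlier results of these data known. Named genes are the 9 members, genes of the lists, near-identical copies, and the 5 genes most like Cs or like the mean of the members. Alternatives were scaling without Rn45s, edgeR 4.0.16 TMM, DESeq2 1.42.0 size factors, the deposited normalized signal, pseudocounts of 0.1 and 10 CPM, thinning to 200000 counts outside Rn45s, summed counts, differences within title letters, other detection limits, dropping cells above 75% Rn45s, and leaving out each cell. The band of 300000 to 800000 counts outside Rn45s was added after seeing the data. Analyses used R 4.3.3, scipy 1.17.1, pandas 2.3.3, numpy 2.4.6 and Python 3.11.15. The values of 1 listed gene are not reported here.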

Additional observations from a re-analysis of the deposited data

Results flagged for a closer look

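Mdh1 in the lowest of the 10 silent sensitive cells stood at 6.359 CPM, far from the other 9 on the log2(CPM + 1) scale: its gap to the nearest cell was 0.826 of the whole range of the class. Of 18 groups examined in this way, 1 stood out. Chance can also mark a group, at a rate that was not tested for these values.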

How the results depend on the processing

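Cs kept its sign under 11 alternatives and when each cell was left out in warm-sensitive minus insensitive cells (-5.69 to -2.64 and -4.68 to -4.24) and likewise for silent insensitive minus insensitive cells (-4.69 to -2.26 and -4.06 to -3.56). It changed sign in cold-sensitive minus insensitive cells (-0.71 to 1.02 and -0.63 to 1.69), and in silent sensitive minus silent insensitive cells it lay from 0.44 to 1.75, and from -0.20 to 0.86 with a cell left out. Differences of at least 1 that changed sign were Suclg1 in warm-sensitive minus insensitive cells (0.40 under DESeq2 size factors), Fh1 in cold-sensitive minus insensitive cells (0.78 within letters, 1.34 at 300000 to 800000 counts outside Rn45s) and Idh3b there (2.41 at that depth), and, in silent insensitive minus insensitive cells, Idh3b (0.021 on summed counts), Mdh1 (0.24) and Mdh2 (0.17), the last 2 at that depth. The cause was not tested. Scaling moved the median gene itself: from -1.36 to -0.65 under DESeq2 size factors in warm-sensitive minus insensitive cells and from -0.65 to 0.15 in silent sensitive minus silent insensitive cells. The filter moved it as well: among all genes with a count it was -0.34 and -0.21 in these 2 comparisons.

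Brackets below give the share of all genes compared in that setting that passed the same limit. Of the 9 genes, those at least 1 lower numbered 7 in warm-sensitive minus insensitive cells (67.6%). They numbered 4 under DESeq2 size factors (34.2%) and 3 on summed counts (45.5%). In cold-sensitive minus insensitive cells the number was 2 (35.4%), but 1 on summed counts (40.1%). It was 0 under TMM (29.3%), DESeq2 size factors (29.5%), the deposited normalized values (30.4%) and a pseudocount of 10 CPM (15%). It was also 0 after thinning (35.2%), within letters (33.3%) and at 300000 to 800000 counts (29%). In silent insensitive minus insensitive cells the number was 5 (37.6%). It was 3 without Rn45s (36.7%), under TMM (33.5%) and in the deposited normalized values (32.8%). It was 2 under DESeq2 size factors (25.9%), thinning (25.1%) and summed counts (28.2%). It was also 2 without cells over 75% Rn45s (21.1%) and at 300000 to 800000 counts (17%). Those at least 1 below the median gene numbered 2 in warm-sensitive minus insensitive cells (13%). They numbered 1 under DESeq2 size factors (11%), on summed counts (24.6%) and within letters (13.1%), and 6 among all genes with a count (16.4%). They numbered 0 in cold-sensitive cells (21.2%), but 1 on summed counts (30%) and among all genes with a count (12%). They numbered 5 in silent sensitive minus silent insensitive cells (18%), but 2 with a pseudocount of 10 CPM (4.94%). They also numbered 2 on summed counts (27%), of which 1 was Fh1, a gene not eligible in this comparison. They numbered 3 without cells over 75% Rn45s (17.7%) and at 300000 to 800000 counts (21.5%). In silent insensitive minus insensitive cells they numbered 2 (11.5%). They numbered 1 under DESeq2 size factors (10.9%) and a pseudocount of 10 CPM (2.89%), and 5 among all genes with a count (10.3%). Leaving out each cell gave 7 to 8, 0 to 2, 5 to 6 and 4 to 5 genes at least 1 lower in warm-sensitive, cold-sensitive, silent sensitive and silent insensitive cells, and 2 to 4, 0 to 2, 4 to 5 and 1 to 3 at least 1 below the median gene. The share of all genes was not taken with a cell left out.

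With 1 count as the limit, the median number of genes per cell was 8.5 in insensitive, 7 in warm-sensitive, 8 and 7 in the silent insensitive and silent sensitive classes. In silent insensitive cells it was 7 after thinning and at 300000 to 800000 counts. The summed level of the 9 genes outside Rn45s was 6125, 6107, 7078, 5153 and 4199 CPM in insensitive, warm-sensitive, cold-sensitive, silent insensitive and silent sensitive cells. With Rn45s included it was 1359 CPM in silent sensitive cells. The deposited normalized values, rescaled with Rn45s included, gave 1906 in these cells. Depth limits what can be said of a gene not found in a cell with few counts outside Rn45s, and with no animals named the spread between animals is unknown.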
